A study of Mus musculus with 16 samples.

Results

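The regions described here are 377 very short 3' untranslated region (3' UTR) intervals, one per gene, out of 21177 genes with an interval in the deposited table. An interval was taken where it was at most 200 bases long, had a mean CPM (the read count scaled to library size) of at least 5, and was the interval of its gene with the highest mean CPM. Of the 6027 genes whose best covered interval reached 5 CPM, 6.26% met the rule. No T-to-C rate was used to choose them.

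The samples were leukemia cells from bone marrow of C57BL/6 mice of 2 genotypes, WT and YBX1-/-, and the study concerned mRNA stability under YBX1, an RNA-binding protein, with regard to the RNA mark m6A. All cells had been given 50 µM 4-thiouridine (4sU) for 24 h and were then chased in medium containing 10 mM uridine. PolyA RNA was collected at 0, 0.5, 1, 3, 6, 12, 18 and 24 h of the chase, with 1 library per genotype and time point, which gives 8 WT and 8 YBX1-/- libraries. In SLAM-seq, RNA made in the presence of 4sU shows T-to-C changes in the reads, and the T-to-C rate of an interval, given here in percent, falls as labelled RNA is lost or diluted by new RNA. The sources used here do not give the leukemia model, the age of the animals, how many were pooled or the kind of YBX1 deletion.

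A 3' UTR lies between the stop codon and the poly(A) tail. It holds sites for microRNAs and RNA-binding proteins, many of which shorten the life of the mRNA, and, near its end, the poly(A) signal, a hexamer that directs cleavage of the transcript. Many genes for ribosomal proteins, respiratory chain subunits and secreted proteins have short 3' UTRs, and their mRNAs are known as long-lived.

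Nearly all members were real 3' UTR pieces of the annotation, and most held a poly(A) signal close to their end. In GENCODE M21 (mouse build GRCm38) 374 of the 377 matched a 3' UTR segment of a transcript exactly, 305 of them in its last exon, and 258 (68.4%) were the whole 3' UTR of a transcript. The remaining 3 comprised 2 intervals in non-coding transcripts and 1 in coding sequence. There were 291 members that began directly after a stop codon. The genes of 227 members had several intervals and those of 150 had a single one. A member is thus not always the only 3' UTR interval of its gene. Lengths ran from 3 to 200 bases with a median of 141 (quartiles 94 and 170). Another transcript of the same gene used the full interval as coding sequence in 73 members (19.4%), among them Lgals1, Cox4i1, Ndufb8, Psma6 and Rps18.

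The hexamer AATAAA or its variant ATTAAA was found in 257 members (68.2%), read on the strand of the gene only, with overlapping matches counted. The share was 83.6% (254 of 304) in members that no transcript used in full as coding sequence. It was 4.11% (3 of 73) in members that another transcript did use in full. A median of 19 bases (quartiles 16 and 22) followed the last hexamer before the interval ended. The sequences below are 30-base windows of members that carry the results: the 4 with the highest mean CPM, then 2 of those with the longest WT half-lives (Rpl34, Stab1) and 1 of those with the shortest (Dctpp1). They are written 5' to 3' on the strand of the gene, with the last hexamer of the interval in capitals.
Fth1 (chr19:9985061-9985090, + strand): accatttcttcaAATAAAgaattttggtac
S100a8 (chr3:90669999-90670028, + strand): atatgtctacagAATAAAgtcatcatatct
S100a9 (chr3:90692637-90692666, - strand): gataagataaatAATAAAtaagtctttatc
Elane (chr10:79888182-79888211, + strand): ccattttactacAATAAAagcagcctttgt
Rpl34 (chr3:130726838-130726867, - strand): cattttttaagtAATAAAaatcaagacttg
Stab1 (chr14:31139038-31139067, - strand): tctgtccaggacAATAAAagtgccctcagc
Dctpp1 (chr7:127256964-127256993, - strand): gttttctctctcAATAAAatgacttaaggc

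The windows of Rpl34, Stab1 and Dctpp1 all held AATAAA, with 19, 37 and 17 bases after it. The members with the longest and shortest WT half-lives were not uniform in this. Cfp had 92 bases after its last hexamer, and Selenoh held no hexamer. Ndufa13 had 1 base after its last hexamer, but its interval held another AATAAA further upstream. AATAAA alone was present in 57.8% of members, 72.8% of intervals over 200 to 500 bases and 95.2% of those over 2000 bases. Longer intervals offer more places for any match, so the number of matches per 1 kb was also counted. It was 4.74 per kb in members and 0.90 per kb in intervals over 2000 bases. A match is a description of the letters and not a measured site.

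**Figure D1:**
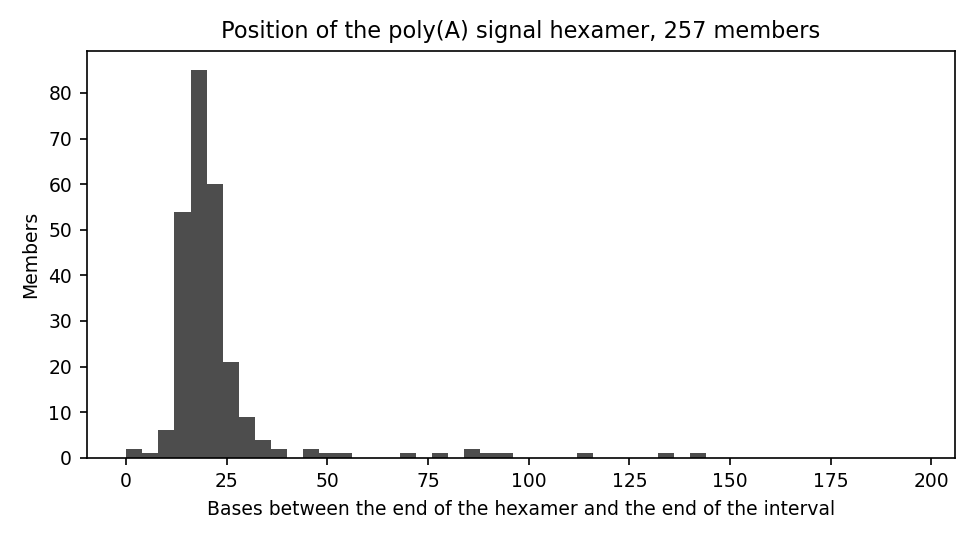
Number of members by the count of bases between the end of the last AATAAA or ATTAAA and the end of the interval, for the 257 members with a match. Most members lie in a narrow peak around the median of 19 bases.

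Other short elements were each present in a smaller share of members than of longer intervals, while matches per kb were fewer only for ATTTA when compared with intervals over 2000 bases. ATTTA, the core of AU-rich destabilising elements, was present in 13.8% of members against 96.8% of intervals over 2000 bases, at 1.16 and 1.86 matches per kb. GGACT, a common context of m6A, was present in 12.5% of members against 92.3%, at 1.02 and 0.91 matches per kb. TGTANATA, the Pumilio motif, was present in 3.45% of members against 50.4%, at 0.28 and 0.24 matches per kb. Because YBX1 is studied here with regard to m6A, 2 members that hold GGACT are shown, with that motif in capitals, a respiratory chain subunit and the neutrophil protease cathepsin G. Whether the A in them is methylated was not measured in the data used here.
Ndufa3 (chr7:3620059-3620088, + strand): gggtccaagcttGGACTggctgaagaacct
Ctsg (chr14:56099929-56099958, - strand): GGACTtccatagcccttattaatgccttct

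Tests were run on genes with a nonzero rate in 12 or more of the 16 libraries, that is 7411 genes and 367 of the 377 members. Each group was 1 library, so a p-value here reflects how far time points scatter around the fit, and nothing says that they came from separate cultures or animals. Depth per library is unknown, a rate of exactly 0 can mean no reads or no converted reads, and with no unlabelled library background could not be subtracted. All 14 myeloid markers had a mean above 1 CPM, with a sum of 10357 CPM, and all 6 stem and progenitor markers did, with a sum of 112 CPM. Other marker types are not all given here. Of those given, 4 megakaryocyte markers summed to 69.6 CPM (3 above 1 CPM) and 7 markers of T and NK cells to 12.2 CPM (1 above). The 6 markers of stroma and endothelium summed to 4.91 CPM (1 above) and 7 erythroid markers to 3.7 CPM (2 above, Alas2 at 0). The YBX1-/- 0 h library stood apart from the other early libraries, where 3.64% of tested genes were listed at a rate of 0, against 0.09% at 0 h in WT. For members these shares were 3.81% and 0%.

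Members began the chase with less label than longer intervals and ended it with more. In WT the median rate of members was 38.9%, 42.3%, 40.6%, 27.1%, 16.9%, 4.48%, 1.72% and 1.41% from 0 to 24 h. All tested genes had 42.9%, 49.2%, 43.6%, 19.9%, 10.2%, 2.17%, 1.14% and 0.85%. Members were thus lower at 0, 0.5 and 1 h and higher from 3 h on. In YBX1-/- the median rate of members was 28.6%, 29.8%, 26.8%, 22.5%, 12.5%, 3.61%, 2.13% and 1.12%, and that of all tested genes was 33.3%, 36.7%, 29.8%, 18.2%, 4.76%, 1.75%, 1.32% and 0.77%. The same crossing between 1 and 3 h was present in both genotypes. Intervals over 200 to 500 bases crossed there as well, with medians of 43.0% at 1 h and 24.3% at 3 h in WT. In YBX1-/- these were 28.7% and 21.3%.

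At 6 h the length classes were ordered from short to long. In WT the 6 h medians were 16.9% for members, 12.8% over 200 to 500 bases, 10.3% over 500 to 1000, 9.81% over 1000 to 2000 and 9.20% over 2000 bases. In YBX1-/- they were 12.5%, 8.26%, 4.96%, 4.04% and 3.64%. At 6 h 77.7% of members in WT and 85.0% in YBX1-/- lay above the median of all tested genes, while at 0.5 h only 29.2% and 21.5% did.

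**Figure D2:**
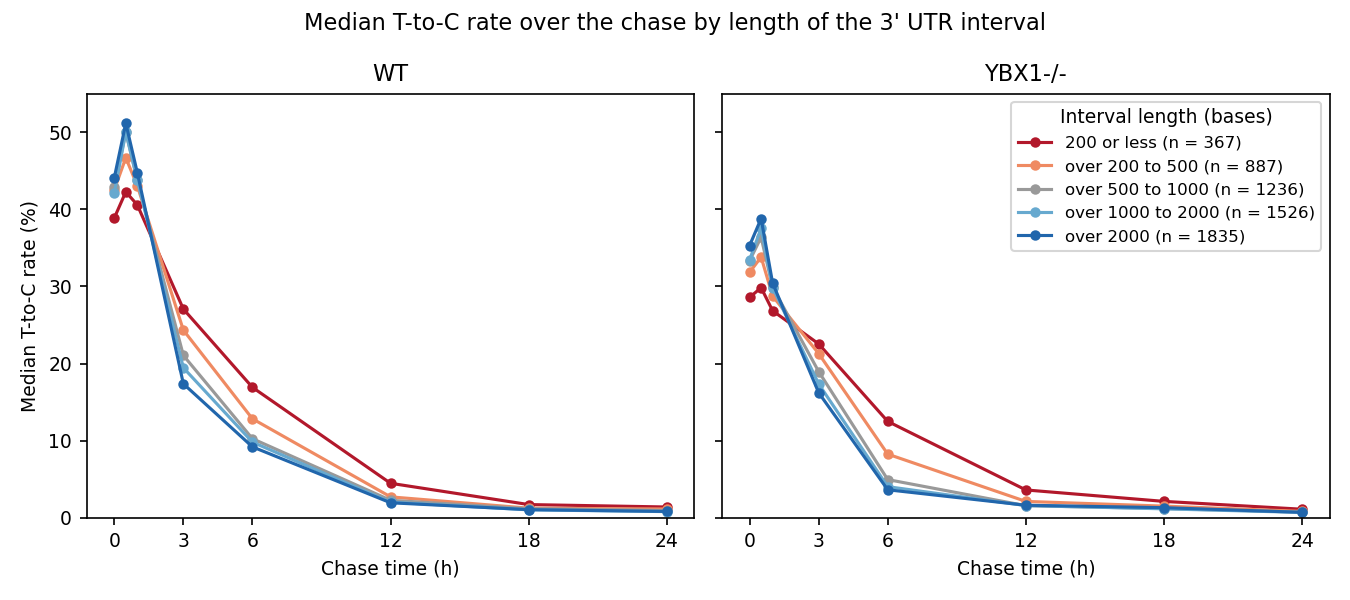
Median T-to-C rate in percent (linear axis) against chase time in hours, for WT (left) and YBX1-/- (right), in 5 classes of interval length with a mean of at least 5 CPM; each point is 1 library and n is the number of tested genes. Members (red) start lowest, at 38.9% and 28.6%, and are highest at 6 h, at 16.9% and 12.5%.

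Composition and coverage moved with length, and their part in these differences was not tested. The T share of the interval was 27.4% in members (median) and 30.4% in intervals over 2000 bases. Across members the rate at 0 h rose with the T share, with a Spearman rho of 0.48 in WT and 0.36 in YBX1-/- (367 members that share each library). At 6 h in WT rho was 0.22. For the slope over time, rho with the T share was 0.02 in WT and 0.07 in YBX1-/-. The coverage signal per T had a median of 107 in members, 58.5 over 200 to 500 bases and 7.33 over 2000 bases. Of all member values 5.28% were 0, against 8.93% over all tested genes and 6.45% over tested genes with at least 5 CPM.

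The median loss of label on the log2 scale was slower in members than in each class of longer intervals. The slope of log2(rate + 0.1 percentage points) over hours had a median of -0.23 log2 per h in members in WT (quartiles -0.30 and -0.18), against -0.27 in all tested genes. In YBX1-/- it was -0.20 (quartiles -0.25 and -0.16), against -0.25. Without the YBX1-/- 0 h library the median of members in YBX1-/- was -0.21. The main slopes correspond to half-lives of 4.40 h and 4.89 h in members and 3.72 h and 4.06 h in all tested genes. A slope nearer 0 than the tested median was found in 245 of 367 members (66.8%) in WT and 266 (72.5%) in YBX1-/-. For intervals over 200 to 500 bases these shares were 58.6% and 61.7%, and over 2000 bases 50.2% and 49.5%. Nearly every member did lose label over 24 h. Its fall passed the threshold (limma, Benjamini-Hochberg adjusted p under 0.05 over all tested genes) in 356 members in WT (97.0%, against 95.2% of all tested genes) and 344 in YBX1-/- (93.7%, against 91.5%). Among tested genes with at least 5 CPM, the limit that members had to meet, these shares were 97.5% and 95.3%, both above those of members.

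**Figure D3:**
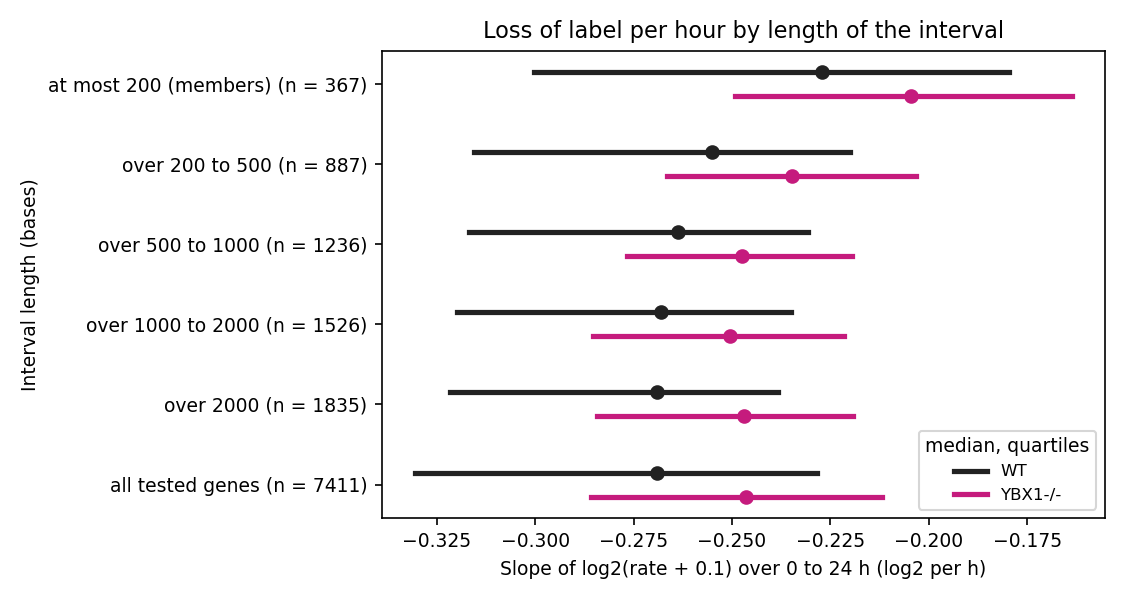
Median (point) and quartiles (bar) of the slope of log2(rate + 0.1) over 0 to 24 h, in log2 per h, by class of interval length and for all tested genes, in WT (black) and YBX1-/- (pink). Members sit nearest to 0, with medians of -0.23 and -0.20, and the 3 classes over 500 bases lie close together.

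The medians of members and all tested genes lay further apart in the first hours. Over 0 to 6 h the median slope was -0.21 in members and -0.39 in all tested genes in WT, and -0.17 and -0.47 in YBX1-/-. Over this window the fall passed the threshold in 235 members in WT (64.0%, against 83.1% of all tested genes) and 208 in YBX1-/- (56.7%, against 84.8%). Intervals over 200 to 500 bases lay between, with median slopes of -0.32 and -0.31. Fits of an exponential with a constant floor to the library medians gave half-lives of 4.38 h in WT for members (3.85 to 4.63 when single time points were omitted) and 4.83 h in YBX1-/- (4.48 to 5.23). For all tested genes they gave 2.76 h (2.01 to 3.11) and 2.66 h (2.11 to 3.17). The ranges of members and all tested genes did not overlap in either genotype. Averaged over the 8 time points, the member median lay 0.37 log2 above that of all tested genes in WT and 0.39 above it in YBX1-/-.

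Among members themselves the shortest intervals kept label longest in WT. The median slopes were -0.19 in WT and -0.19 in YBX1-/- for 28 members of up to 50 bases, and -0.25 and -0.22 for 155 members over 150 bases. At 12 h in WT the median rate was 9.25% up to 50 bases and 3.97% over 150 bases. Across members the rho of length with slope was -0.18 in both genotypes, and that of mean CPM with slope was 0.29 in WT and 0.20 in YBX1-/-. The slopes of the genotypes had a rho of 0.56 over the 367 members and 0.25 over all tested genes, which share the same libraries.

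Members that no transcript used in full as coding sequence lost label more slowly, by their medians, than the others. The 301 tested members of this kind had median slopes of -0.22 in WT and -0.20 in YBX1-/-. The 66 that another transcript uses in full as coding sequence had -0.29 and -0.25. Median T shares of these 2 sets were 27.9% and 22.4%, and median GC shares 44.0% and 52.0%. In the second set 37.9% of members in WT had a slope nearer 0 than the tested median, against 73.1% in the first. These sets were compared after earlier values were known and without a test.

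At the lower end of the rule stood members of a few bases, whose rates were in the range of the others. Atp5e, the epsilon subunit of the ATP synthase, had an interval of 3 bases with 1 T (chr2:174462500-174462502, - strand). Over the chase its WT rates were 34.2%, 32.8%, 41.4%, 27.5%, 28.9%, 16.3%, 5.35% and 4.93%. In YBX1-/- they were 22.2%, 22.5%, 23.9%, 18.9%, 18.97%, 7.97%, 5.96% and 2.71%, lower than WT at 7 of 8 time points. A rate in so short an interval rests on reads that reach beyond it, and the sources used here do not say which of their bases were counted. Tmem258, an oligosaccharyltransferase subunit, had 10 bases, and its rate ran from 47.2% to 2.25% in WT and from 41.5% to 1.43% in YBX1-/- between 0 and 24 h. Selenoh, a selenoprotein, had 16 bases, Pgls, an enzyme of the pentose phosphate pathway, 19, and Ndufb2, a complex I subunit, 25. Pgls swung between neighbouring time points, with 18.5%, 46.2%, 0% and 27.3% in WT at 3, 6, 12 and 18 h.

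At the upper limit of 200 bases stood Ndufa6, a complex I subunit, Mrpl4, a mitochondrial ribosomal protein, and Fbxo6, a subunit of a ubiquitin ligase. Their WT rates at 0 and 6 h were 42.0% and 18.6%, 35.2% and 9.68%, and 32.0% and 4.85%. Just outside the limit were Wfdc17, a secreted protein of the WAP family, with 50.7% and 36.8%, Cox6a1, a cytochrome c oxidase subunit, with 40.7% and 26.3%, and Serf1 with 43.8% and 25.8%. At 0 h the rates on either side of the limit overlapped, and at 6 h the 3 just outside were higher than the 3 just inside.

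The members with the most reads were dominated by ferritin and by proteins of neutrophils and their precursors. Fth1, the ferritin heavy chain that stores iron, had the highest mean CPM, 1173, in an interval of 156 bases (chr19:9984943-9985098, + strand, last exon). Over the chase its WT rates were 48.3%, 50.8%, 47.6%, 31.1%, 18.7%, 4.44%, 1.498% and 1.03%. In YBX1-/- they were 38.7%, 38.3%, 32.2%, 26.4%, 14.2%, 5.30%, 4.95% and 0.82%. WT was higher at 6 of 8 time points, all but 12 and 18 h. After the median of each library was subtracted, Fth1 was higher in YBX1-/- at 5 of 8. The half-lives from the slopes were 3.98 h and 4.80 h, and the decay rate difference, the slope in YBX1-/- minus that in WT after subtracting the median of each library, was 0.02 log2 per h (SE 0.02, limma, Benjamini-Hochberg adjusted p = 0.776).

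S100a8 and S100a9, which pair to form calprotectin, the main cytosolic protein of neutrophils, went the other way. S100a8 (68 bases, 783 CPM) had WT rates of 20.3%, 20.6%, 20.7%, 16.4%, 15.4%, 9.04%, 3.88% and 4.24%. Its YBX1-/- rates were 36.2%, 33.8%, 30.1%, 31.3%, 24.99%, 10.9%, 4.64% and 1.93%, above WT at 7 of 8 time points. S100a9 (114 bases, 584 CPM) had WT rates of 18.8%, 19.9%, 19.9%, 16.1%, 14.2%, 5.96%, 2.13% and 1.90%. Its YBX1-/- rates were 33.6%, 36.3%, 31.1%, 32.0%, 22.3%, 9.29%, 3.62% and 1.03%. Both transcripts carried more label in YBX1-/- up to 18 h and less at 24 h, while the median rate of members was lower in YBX1-/- at every time point but 18 h. Neither passed the threshold for the decay rate difference, at -0.08 log2 per h (SE 0.02, limma, adjusted p = 0.152) for S100a8 and -0.07 (SE 0.02, limma, adjusted p = 0.209) for S100a9.

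Elane, neutrophil elastase, held its label almost flat for 6 h in WT. Its WT rates were 22.1%, 24.1%, 20.1%, 18.9%, 20.3%, 6.94%, 5.21% and 3.16%, and its YBX1-/- rates were 19.8%, 17.4%, 14.7%, 17.6%, 13.5%, 7.77%, 3.67% and 2.22%. YBX1-/- was lower at 7 of 8 time points, though the ranges of the genotypes overlapped, and the half-lives were 8.17 h and 7.90 h. After the median of each library was subtracted, Elane was higher in YBX1-/- at 5 of 8 time points. Stfa1, a stefin that inhibits cysteine proteases, had WT rates of 34.1%, 34.4%, 35.8%, 28.5%, 26.5%, 13.6%, 5.61% and 5.72%. In YBX1-/- its rates were 15.5%, 21.3%, 19.97%, 18.4%, 12.8%, 12.5%, 16.6% and 1.96%, lower at 7 of 8 time points. With the library medians subtracted, Stfa1 was higher in YBX1-/- at 3 of 8. Stefin genes are near-identical copies, as are many ribosomal protein genes and their pseudogenes, so reads may have been split between them and these values are uncertain.

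Lgals1, the sugar-binding protein galectin-1, had WT rates of 33.7% at 0 h, 25.02% at 6 h and 1.77% at 24 h, and YBX1-/- rates of 21.1%, 14.2% and 1.35%. Cstb, the protease inhibitor cystatin B, had 51.9%, 28.2% and 2.04% in WT and 36.2%, 23.1% and 1.88% in YBX1-/-. Atpif1, the inhibitory factor of the ATP synthase, had 45.5%, 28.7% and 1.43%, and 30.6%, 19.2% and 0.97%. All 3 were lower in YBX1-/- at these times. With the library medians subtracted, Cstb was higher in YBX1-/- at 6 of 8 time points, and Lgals1 and Atpif1 each at 1 of 8. Cyba, a subunit of the phagocyte NADPH oxidase, had 34.5%, 25.6% and 1.88% in WT and 24.4%, 17.2% and 1.66% in YBX1-/-. Cd52, a small surface glycoprotein of leukocytes, had 36.7%, 22.7% and 3.59%, and 28.6%, 12.5% and 1.93%. None of the 10 members with the highest mean CPM passed the threshold for a decay rate difference (limma).

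**Figure D4:**
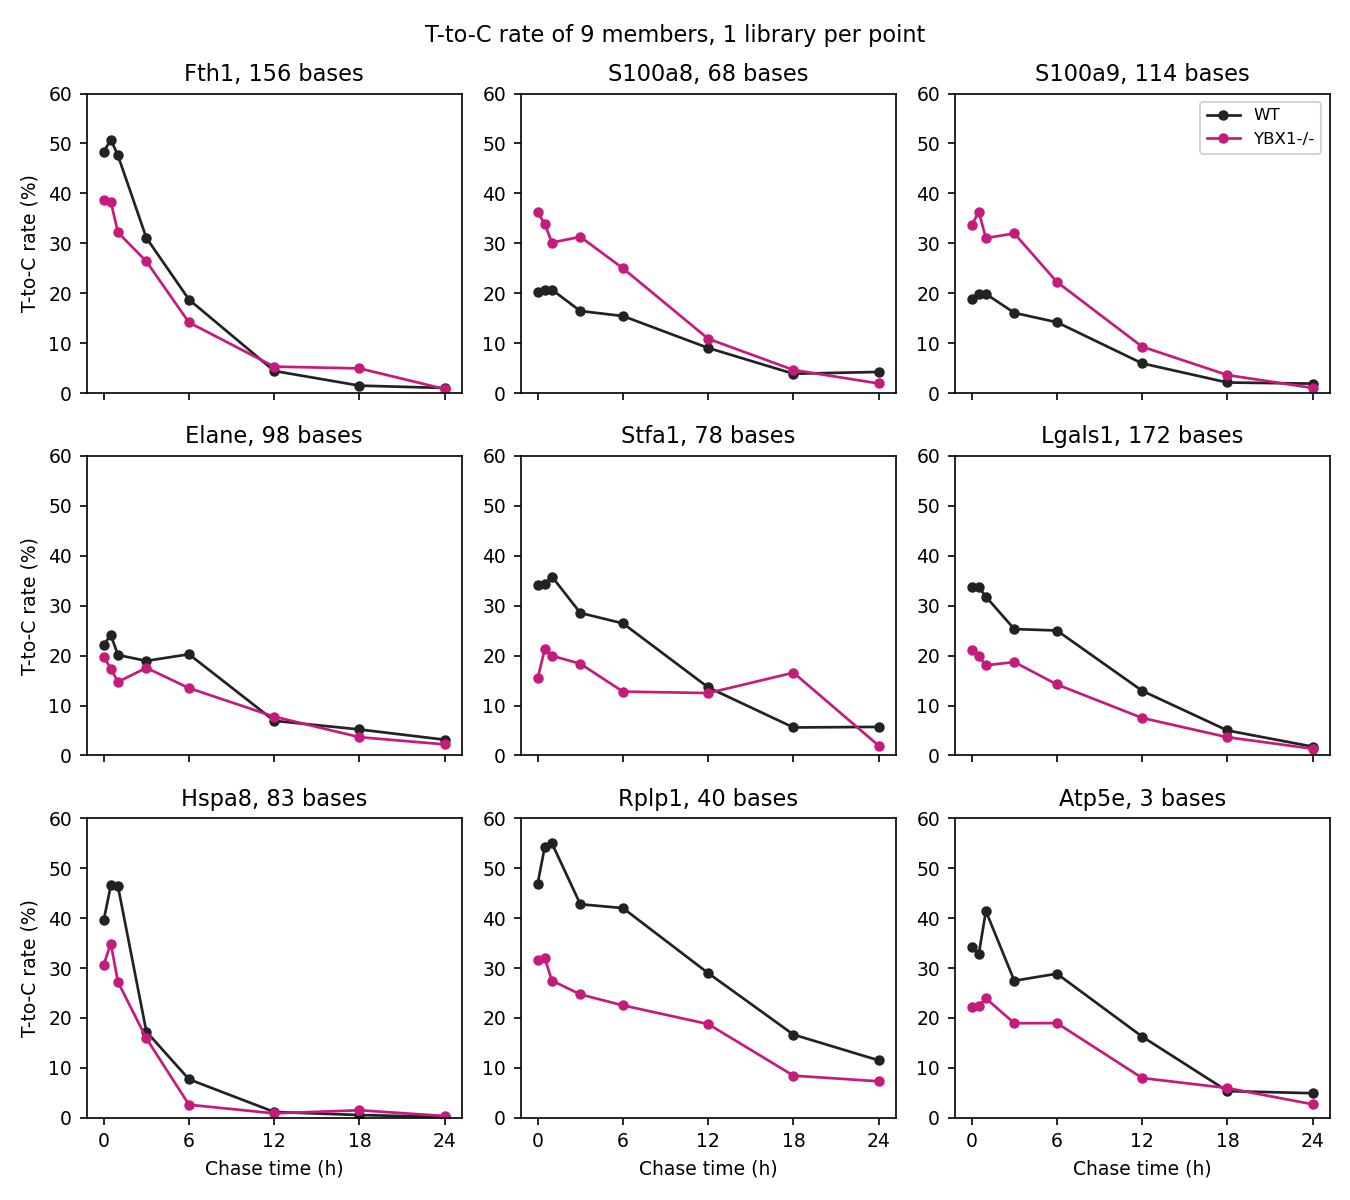
T-to-C rate in percent against chase time in hours for 9 members in WT (black) and YBX1-/- (pink), 1 library per point, with the interval length in each title. S100a8 and S100a9 lie above WT in YBX1-/- up to 18 h, Hspa8 falls fastest and Rplp1 slowest.

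Of the members, 127 belonged to 1 of 15 gene lists defined by symbol and 250 to none. Members made up 51.9% of the respiratory chain list (42 of 81 genes with at least 5 CPM), 50.0% of granule and secreted myeloid proteins (18 of 36), 40.0% of cytosolic ribosomal proteins (16 of 40) and 35.9% of the proteasome (14 of 39). They made up 18.3% of mitochondrial ribosomal proteins (11 of 60) and 15.4% of translation factors (8 of 52). No member was among 54 small GTPases, 23 genes of protein import into mitochondria or 11 histones, and 1 each was among 95 solute carriers (Slc15a3) and 58 zinc finger genes (Zfp560). Over all genes with at least 5 CPM the share was 6.26%. Beside the counts of fallen label per list below, the shares of all tested genes were 95.2% in WT and 91.5% in YBX1-/- (limma).

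Cytosolic ribosomal proteins, the parts of the translating ribosome, kept label longest together with the myeloid proteins. Label fell past the threshold in all 16 members in both genotypes (limma), and all 16 had slopes nearer 0 than the tested median in both. Their median slopes were -0.15 in WT and -0.16 in YBX1-/-, against -0.19 and -0.19 for 24 ribosomal protein genes with longer intervals. Rplp1, of the ribosomal stalk (40 bases), had WT rates of 46.9%, 54.3%, 54.99%, 42.8%, 42.0%, 29.0%, 16.7% and 11.5%. In YBX1-/- they were 31.6%, 32.0%, 27.5%, 24.7%, 22.5%, 18.8%, 8.44% and 7.32%, lower at every time point, and the half-lives were 11.0 h and 11.2 h. Rpl32 (54 bases) had 36.7%, 30.8% and 2.53% at 0, 6 and 24 h in WT and 38.5%, 19.97% and 1.93% in YBX1-/-. Rps27l, a relative of the ribosomal protein S27 that p53 induces, started higher, with 60.6%, 34.4% and 3.65% in WT and 51.4%, 27.8% and 2.21% in YBX1-/-. In Rps18, whose interval is coding in another transcript, the rates were 34.9%, 22.2% and 2.53%, and 15.6%, 14.5% and 1.25%.

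The list of granule and secreted myeloid proteins also takes in S100a, cystatin and stefin genes by symbol, among them the cytosolic S100a8 and S100a9. Its 18 members had median slopes of -0.16 in WT and -0.15 in YBX1-/-. The 16 genes of the list with longer intervals had -0.17 and -0.18. Label fell past the threshold in 18 of 18 members in WT and 16 of 18 in YBX1-/- (limma), where Stfa2 and Stfa3 did not pass. At 0 h in WT the median rate was 29.9% in these members and 43.5% in the genes with longer intervals.

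Respiratory chain subunits, which carry electrons and make ATP in mitochondria, were the largest group. All 42 lost label past the threshold in both genotypes (limma), and 34 in WT and 37 in YBX1-/- had slopes nearer 0 than the tested median. Their median slopes were -0.22 and -0.19, against -0.21 and -0.21 for 39 subunits with longer intervals. The member median was thus the steeper of the pair in WT and the flatter in YBX1-/-. The library medians of these 42 members gave half-lives with a floor of 5.47 h in WT (4.95 to 5.77) and 6.37 h in YBX1-/- (6.04 to 6.78). Cox7a2, a cytochrome c oxidase subunit, had 51.2%, 34.1% and 3.37% in WT at 0, 6 and 24 h and 35.5%, 23.9% and 1.48% in YBX1-/-. Ndufb8 and Ndufa3, of complex I, had WT rates of 48.1%, 28.4% and 1.25%, and 32.7%, 24.2% and 2.41%. Cox4i1 had 33.7%, 21.4% and 0.81% in WT and 24.3%, 18.4% and 1.54% in YBX1-/-. Ndufa13, of complex I, was the slowest of these named subunits, with a WT half-life of 11.2 h.

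Proteasome subunits and mitochondrial ribosomal proteins lay closer to the tested median. Label fell in 13 of 13 tested proteasome members in WT and 11 in YBX1-/- (limma), with median slopes of -0.25 and -0.23, against -0.26 and -0.24 for 25 longer ones. Psmb2, a core subunit, had 49.5%, 24.2% and 1.53% at 0, 6 and 24 h in WT and 28.6%, 17.7% and 1.81% in YBX1-/-. Psmb6 had 39.0%, 16.9% and 0.84%, and 30.4%, 14.3% and 0.98%. The immunoproteasome subunit Psmb8 had 36.1%, 11.2% and 0.98%, and 27.4%, 14.6% and 1.58%, and Psma6 had 39.3%, 14.1% and 0.40%, and 32.0%, 8.90% and 0.56%. All 11 mitochondrial ribosomal protein members lost label in both genotypes, with median slopes of -0.27 and -0.22, against -0.27 and -0.24 for 49 longer ones. In WT 5 of the 11 and in YBX1-/- 10 of the 11 were nearer 0 than the tested median. Mrpl42 had 24.9% at 6 h in WT and 15.03% in YBX1-/-, Mrpl20 19.1% and 11.0%, Mrps18c 11.1% and 7.54%, and Mrpl35 11.2% and 8.45%.

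The 5 members of the RNA polymerase and Mediator list, all polymerase subunits, had steeper slopes than the tested median in WT. All 5 fell past the threshold in both genotypes (limma), none of the 5 was nearer 0 than the tested median in WT, and 4 were in YBX1-/-. Their median slopes were -0.35 and -0.20, against -0.28 and -0.25 for 31 longer genes of the list. Exact zeros late in WT enter these slopes: Polr2f was at 0 at 18 h, Polr2i at 12 and 24 h and Polr1d at 24 h. Floor fits in WT gave half-lives of 4.85 h for Polr2f, 3.23 h for Polr2j, 2.60 h for Polr2i and 2.22 h for Polr1d. The medians of all tested genes gave 2.76 h. Polr2j, a subunit of RNA polymerase II, had 37.5%, 7.61% and 0.60% at 0, 6 and 24 h in WT and 27.8%, 4.28% and 0.55% in YBX1-/-. Polr2f had 37.8%, 15.3% and 1.22%, and 18.2%, 13.2% and 1.28%. Polr2i had 26.9%, 4.76% and 0%, and 20%, 3.33% and 0.92%.

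In the smaller lists members differed widely from each other. Of those tested, 3 of 4 chaperones, 3 of 4 ubiquitin-like genes and 1 of 3 spliceosome genes had slopes nearer 0 than the tested median in both genotypes, and 5 of 7 translation factors did in each. Hspa8, the constitutive chaperone of the HSP70 family, had WT rates of 39.6%, 46.6%, 46.4%, 17.3%, 7.72%, 1.17%, 0.56% and 0.18%. In YBX1-/- they were 30.7%, 34.9%, 27.2%, 15.9%, 2.63%, 0.89%, 1.52% and 0.37%, and its floor fits gave half-lives of 2.62 h (1.88 to 3.02) and 2.43 h (1.86 to 2.95). Hspe1, the mitochondrial chaperone HSP10, kept more label, with 62.5%, 31.4% and 3.03% at 0, 6 and 24 h in WT and 40.8%, 16.7% and 0.97% in YBX1-/-. Cct5 and Hspa14 had 23.4% and 11.5% at 6 h in WT, and 12.9% and 4.67% in YBX1-/-. The ubiquitin gene Ubb stood at 20.3% at 6 h in WT and at 12.7% in YBX1-/-. The ubiquitin-like Ubl5 stood at 24.7% and 19.9%, and Ubl4a at 19.5% and 29.6%. Among translation factors Eef1b2, which recharges elongation factor 1A, stood at 39.3% and 24.9% at 6 h. The initiation factor subunits Eif3k and Eif3h stood at 15.5% and 14.1%, and at 24.3% and 15.5%. Eif5, which promotes GTP hydrolysis by eIF2 at the start codon, swung in YBX1-/-, with 51.02%, 15.9%, 38.0% and 0.656% at 1, 3, 6 and 12 h, against 39.4%, 26.6%, 7.65% and 3.6% in WT. The spliceosome members Snrpe, Sf3a3 and Snrpa had 22.5%, 9.01% and 12.5% at 6 h in WT and 13.0%, 7.36% and 16.9% in YBX1-/-.

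Slow loss was not limited to the lists. The 242 tested members in no list had median slopes of -0.24 in WT and -0.21 in YBX1-/-, against -0.27 and -0.25 for 4926 genes with longer intervals in no list. Label fell in 231 of the 242 in WT (95.5%) and 223 in YBX1-/- (92.1%), against 95.2% and 91.5% of all tested genes (limma). For the 4926 genes with longer intervals these shares were 97.4% and 95.2%.

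**Figure D5:**
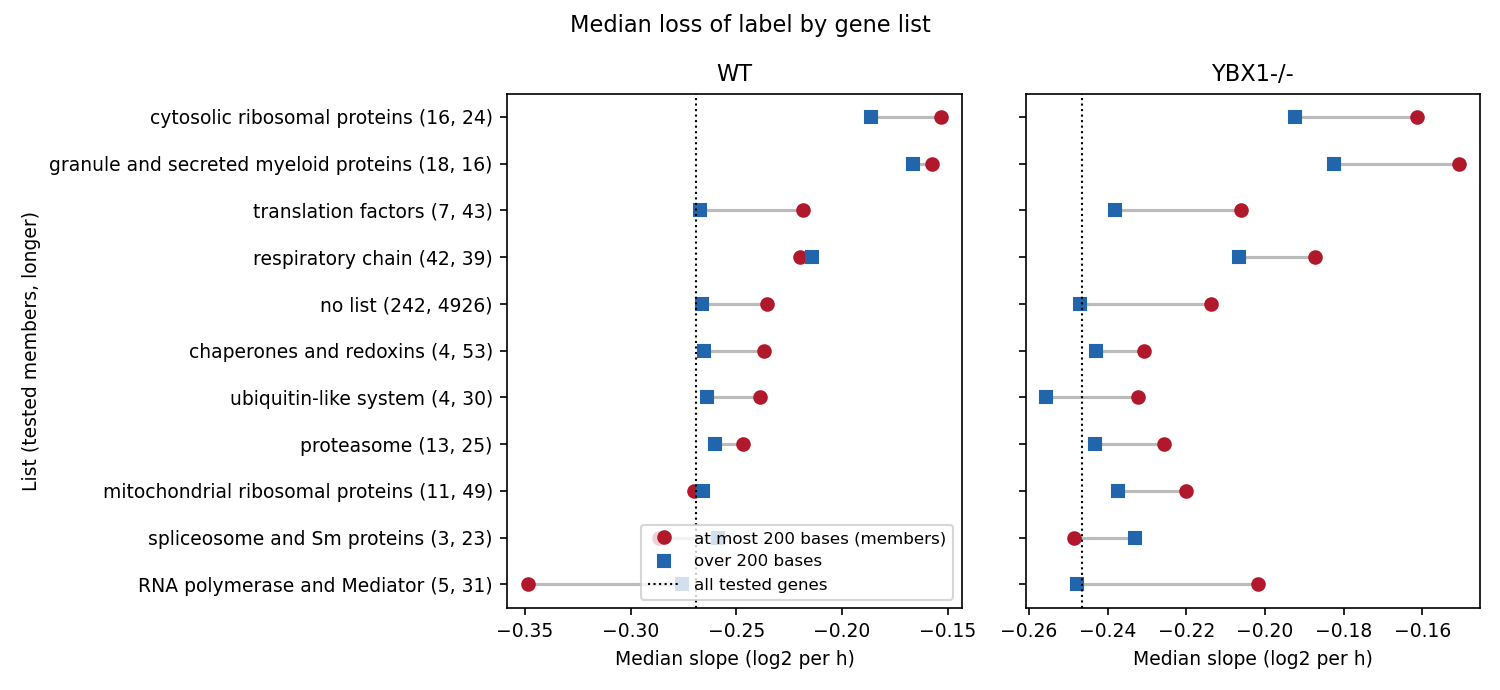
Median slope of log2(rate + 0.1) in log2 per h for members (circles) and for genes with intervals over 200 bases (squares) of each list with at least 3 members, in WT (left) and YBX1-/- (right); numbers in brackets are tested genes, and the dotted line is the median of all tested genes. The member median is nearer 0 than that of longer genes in 7 of the 11 sets in WT and in 10 of 11 in YBX1-/-.

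The longest WT half-lives among members whose label fell were 15.1 h for the ribosomal protein gene Rpl34 (44 bases), 12.9 h for the scavenger receptor Stab1, 11.2 h for Ndufa13 (41 bases), 11.0 h for the complement regulator properdin (Cfp) and 11.0 h for Rplp1. Rpl34 had WT rates of 33.3%, 47.5%, 47.0%, 38.5%, 36.1%, 27.0%, 13.2% and 17.5%. Its YBX1-/- rates were 58.3%, 43.4%, 30.4%, 32.0%, 20.3%, 5.36%, 4.76% and 5.42%. From 12 to 24 h its rates were higher in WT than in YBX1-/-. Those in YBX1-/- also lay above the member medians of 3.61%, 2.13% and 1.12% at 12, 18 and 24 h. Stab1 had WT rates of 25.5%, 31.2%, 11.8%, 11.1%, 10%, 9.09%, 6.75% and 5.73%, an early drop followed by a slow decline. Its half-life depended on the model: the fit with a floor gave 1.08 h in WT (0.183 to 1.85) with a floor of 7.65%. In YBX1-/- Stab1 began at 4.55% and ended at 3.77%, and its label did not fall past the threshold. Cfp had 36.4%, 28.7% and 10.1% at 0, 6 and 24 h in WT and 19.05%, 20.5% and 3.599% in YBX1-/-.

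The shortest WT half-lives were 2.20 h for Mthfsl, 2.21 h for Dctpp1, 2.25 h for Selenoh, 2.31 h for Clpp and 2.31 h for Snx14. Dctpp1 hydrolyses dCTP, Clpp is a mitochondrial protease and Snx14 is a sorting nexin. The first 4 were listed at 0 in WT at 12, 18 and 24 h and Snx14 at 18 and 24 h, so these slopes depend on the 0.1 percentage points added. At 6 h in WT they stood at 20%, 11.1%, 14.4%, 14.3% and 8.63%, against a median of 16.9% in members, with Mthfsl above it and the other 4 below. In YBX1-/- none of the 5 was at 0 at 12 or 18 h, and the half-lives were 3.00 h, 5.31 h, 4.14 h, 5.05 h and 4.64 h.

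Label did not fall past the threshold in 11 members in WT and 23 in YBX1-/-, and 3 of these were the same: Fam166a, Phykpl and Cebpz, named after their values were seen. Fam166a (109 bases, 45.3 CPM) had WT rates of 0.935%, 4.40%, 6.31%, 3.00%, 4.21%, 4.68%, 6.30% and 1.17% over the chase. In YBX1-/- they were 0.709%, 1.34%, 1.02%, 1.58%, 0.644%, 0.143%, 0.602% and 0.848%, lower at every time point. Phykpl, an enzyme of hydroxylysine breakdown, ranged from 0.451% to 3.42% in WT and from 0.263% to 0.709% in YBX1-/-. Rates under 10% in all 16 libraries were found in 4 members, these 2, Mettl5 and Pltp. Prss34, a mast cell and basophil protease, was listed at 0 in 7 of 8 WT libraries and at 50.0% in the WT 24 h library, and at 2.05% to 8.82% in YBX1-/-. It was 1 of the 10 members not tested.

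The decay rate difference between the genotypes was small at the median and varied with the window. It had a median of 0.005 log2 per h in members and 0.004 in all tested genes, and it was above 0 in 197 of 367 members. A value above 0 means slower loss in YBX1-/- relative to the library medians. Slower and faster loss have this relative sense wherever the decay rate difference is described below. Leaving out single time points moved the member median between 0.0009 and 0.012. Over 0 to 6 h the median was 0.098 in members, 0.080 in intervals over 200 to 500 bases and 0.025 in all tested genes. Without centring it was 0.025 in members, and with no filter it was -0.042 in members. The difference passed the threshold in 1 member against 0.108% of all tested genes (8 genes). That member was Gm45713 (24 bases, chr7:45125922-45125945, - strand), a predicted gene that is named because it was the only call. Its WT rates were 41.4%, 24.2%, 35.7%, 25.6%, 24.0%, 8.06%, 7.69% and 8.33%, and its YBX1-/- rates were 41.7%, 30.1%, 27.9%, 29.8%, 14.1%, 3.49%, 1.87% and 1.39%. YBX1-/- was lower from 6 h on. The difference was -0.13 log2 per h (SE 0.02, limma, Benjamini-Hochberg adjusted p = 0.0462), and without the YBX1-/- 0 h library it was -0.14 and did not pass. The interval lies inside that of Rpl13a on the same strand, so reads of the 2 genes cannot be told apart, and the difference of the 388 bases of Rpl13a was -0.04 (SE 0.03, limma, adjusted p = 0.596). At an unadjusted p under 0.05 there were 53 members (14.4%) against 929 of all tested genes (12.5%).

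No other member passed, and the nearest are given as values. Bscl2, the lipid droplet protein seipin, had a decay rate difference of 0.19 log2 per h (SE 0.03, limma, adjusted p = 0.0711). Its WT rates were 43.2%, 19.8%, 2.06% and 0% at 0, 6, 12 and 24 h, and its YBX1-/- rates 18.2%, 12.2%, 4.62% and 1.01%. Towards slower loss in YBX1-/- followed the neuropeptide galanin (Gal, 0.27), the co-repressor Trim28 (0.14), the polymerase subunit Polr1d (0.16) and Rabac1 (0.21), with adjusted p of 0.115 to 0.153 (limma). Towards faster loss were complement C3 (-0.18), Ndufa13 (-0.08), the mitochondrial micropeptide Mtln (-0.10), S100a8 (-0.08) and Rpl34 (-0.10), with adjusted p of 0.107 to 0.173 (limma). C3 had 32.2%, 19.3%, 9.22% and 2.70% in WT at 0, 6, 12 and 24 h and 33.3%, 16%, 4.84% and 0% in YBX1-/-. Ndufa13 had 42.8%, 39.5%, 23.0% and 12.0% in WT and 30.4%, 20%, 11.1% and 2.60% in YBX1-/-, lower at all 8 time points. In Gal, Rabac1 and Bscl2 the WT rates were 0 at both 18 and 24 h, which the slope weighs heavily.

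The number of calls varied with the time points used. Over 0 to 12 h 18 members passed (limma), against 3.62% of all tested genes, 16 with slower and 2 with faster loss in YBX1-/-. All tested genes had 135 calls with slower and 133 with faster loss in this window. In 14 of the 18 members the WT 12 h library held a rate of 0, in 2 the YBX1-/- 12 h library did, and 2 had no such 0. These 2, Ndufa8 of complex I (0.19 log2 per h) and Fam50a (0.24), were named after their values were seen. With the 12 h time point left out 14 members passed, against 2.75% of all tested genes, and with 18 h left out 9 passed, against 1.23%. With any other single time point left out none passed (limma).

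The level of label over the whole chase did not differ past the threshold in any member (limma, 0 of 367, against 0% of all tested genes). At an unadjusted p under 0.05 there were 30 members (8.17%) against 415 genes (5.60%). The level difference, YBX1-/- minus WT with the library median subtracted, had a median of 0.08 log2 in members and 0.01 in all tested genes. The member median was 0.01 without 6 h and 0.02 without 18 h, and without centring it was -0.27. The members nearest to the threshold with more label in YBX1-/- were Ltf, Ear6, S100a9, Ifitm1 and S100a4. Ltf, the granule protein lactoferrin, had WT rates of 10.4%, 15.8%, 8.78%, 6.85%, 4.22%, 0%, 0% and 0%, and YBX1-/- rates of 23.3%, 19.5%, 19.5%, 20.6%, 10.4%, 0.56%, 0.64% and 0.57%. YBX1-/- was higher at 8 of 8 time points, by 2.07 log2 after centring (SE 0.47, limma, adjusted p = 0.779). Ear6, an eosinophil ribonuclease, was also higher at 8 of 8 time points, by 2.095 (SE 0.54). Differences of 0.91 for S100a9, 0.84 for the interferon-induced Ifitm1 and 0.79 for S100a4 followed.

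Less label in YBX1-/- was nearest to the threshold in Rpl36al (-0.46 log2), the lipoprotein Apoc2 (-0.58), Stab1 (-1.001), Fam166a (-1.63) and the arginyl-tRNA synthetase Rars (-0.56), none of which passed (limma, adjusted p = 0.779 for each). Apoc2 was lower at 8 of 8 time points, from 33.1% against 19.5% at 0 h to 2.66% against 1.65% at 24 h. Its interval overlaps that of a predicted gene, also a member, with identical rates in all 16 libraries. Altogether 17 members overlapped an interval of another gene on the same strand, and the pairs Apoc2 and Gm44805, Nme2 and Gm20390, and the 2 genes named Dpep2 had identical rates and are not separate measurements.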

How the data were processed

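The 16 libraries were grouped by genotype and chase time from their labels. The authors deposited 1 table of 74385 distinct intervals with T-to-C rates as a fraction from 0 to 1, and, per the file headers, the mean CPM, the coverage signal over T positions and each interval's T content. Per the submitters' processing notes, CASAVA and HISAT2 2.1.0 were used, and the build named there is the human GRCh38. The sources used here give neither the program that counted conversions nor the denominator of the rate. The T count of the GRCm38 sequence (GENCODE M21 transcripts) equalled the deposited T content in all 377 members, so coordinates are given in GRCm38, counted from 1.

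Where intervals of a gene tied for the highest mean CPM (51 members), the longest was taken; with the shortest there would be 380 members. Rates were put in percent and analysed as log2(rate + 0.1 percentage points), so low rates give understated differences. limma 3.58.1 (R 4.3.3, trended prior) fitted a straight line over hours per genotype (6 residual degrees of freedom; half-life is minus 1 divided by the slope). It also fitted genotype by hours (6 degrees of freedom) and genotype (7 degrees of freedom) with time as a factor on values minus the library median. P-values were adjusted by Benjamini-Hochberg over the 7411 tested genes, with 0.05 as the threshold. Floor fits used scipy 1.17.1. Exact zeros and unknown depth limit the late rates.

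Members and lists were chosen with earlier results of these data known. Named genes were the 10 members with the highest mean CPM, the 5 shortest, the 3 longest and the 3 shortest intervals beyond 200 bases, those past the threshold per genotype comparison, filled to 5 per direction by smallest p, the 5 longest and 5 shortest WT half-lives among members whose label fell, and up to 4 members by CPM per list with at least 3. Predicted genes were left out unless stated. A few items that the rule takes in are not reported here. Alternatives were other added values, filters, scales, time windows, libraries, length and CPM limits. Of these, 2 were added after the data were seen: members that no transcript used in full as coding sequence, and members overlapping no other gene. The denominator and strand of counting being unknown, overlapping genes are given as uncertain.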

Additional observations from a re-analysis of the deposited data

Results flagged for a closer look

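The decay rate difference of Gm45713, -0.13 log2 per h, was the only difference between the genotypes in a member that passed the threshold (limma, Benjamini-Hochberg adjusted p = 0.0462). It rests on 1 library per genotype and time point. It passed in 3 of 17 alternatives, with values from -0.18 to -0.03 and adjusted p from 0.0146 to 0.965 (limma). The part that reads of Rpl13a, whose interval contains it, have in this value was not tested.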

How the results depend on the processing

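Of the count, share and median results over members, 35 values moved beyond their spread over time points and 145 did not. The share of members whose label fell moved only over 0 to 6 h, to 64.0% in WT and 56.7% in YBX1-/-. The 1 decay rate call became 18 over 0 to 12 h, 14 with 12 h left out and 9 with 18 h left out. It became 0 over 0 to 6 h, with any other time point left out, with 0.01, 0.5 or 1 added, with no filter, on the arcsine scale, without centring, without the YBX1-/- 0 h library, at a mean CPM of at least 20 and over members overlapping no other gene. The cause was not tested. The median slope moved to -0.19 in WT and -0.17 in YBX1-/- with 1 added, and in YBX1-/- to -0.19 with 0.5 added, -0.24 when only 0 to 12 h was used and -0.17 when only 0 to 6 h was. The median decay rate difference moved to -0.0421 with no filter, 0.0186 over 0 to 12 h, 0.098 over 0 to 6 h and 0.025 without centring, and the median level difference to -0.27 without centring. The distance of the member median from that of all genes became 1.58 log2 in WT and 1.66 in YBX1-/- with no filter, and 0.56 and 0.61 at a mean CPM of at least 20. Among named members 460 values kept direction and side of the threshold, 21 no longer passed, 7 newly passed and 5 decay rate differences reversed: Polr1d (-0.0902), C3 (0.0493), Ndufa13 (0.0365) and S100a8 (0.0969) over 0 to 6 h, and Rabac1 (-0.0312) over 0 to 12 h.
The genotype comparisons were paired by time point, with 1 library per genotype and time point and no replicate numbers in the labels. With no depth per library, a rate of 0 late in the chase cannot be told apart from too few reads.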
